A study of Homo sapiens with 6 samples.

Results

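The sterol regulatory element-binding proteins (SREBPs), their regulators and the enzymes of cholesterol and fatty acid synthesis were followed in 8505C cells, a cultured line from a human anaplastic thyroid carcinoma. The set held 36 genes of the 58735 named genes in the deposited table. They were chosen by symbol for their known place in the pathway, but with earlier results of these data known. All 36 passed the filter on low counts, which left 14280 genes. The first group had received short hairpin RNA (shRNA) against HHEX, a homeobox transcription factor known from thyroid and liver development, and its 3 libraries are named KD1, KD2 and KD3. The second had received a control shRNA, and its 3 libraries are named control1, control2 and control3. The genotype label of the control samples reads wild-type although their titles give a control shRNA, and all samples are labelled untreated. All cells are of a single line, and the labels give neither the number nor the sequence of the hairpins, nor whether clones were picked. The labels speak of biological replicates, but nothing says that they came from separate infections. The titles number the samples within a group as rep1_1, rep1_2 and rep2_1 without saying what either number stands for, so libraries of a group may share a replicate, and the columns of the table cannot be matched to these numbers. The n of 3 therefore counts libraries, and the p-values cover only the spread among the 6 libraries, which may be technical. RNA was read from bulk cultures, in which fewer cells of a type and less RNA per cell cannot be told apart.

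SREBPs are made as precursors in the membrane of the endoplasmic reticulum. When sterols are plentiful, INSIG proteins hold the escort protein SCAP and its SREBP cargo there. When sterols run low, SCAP carries SREBP to the Golgi, where proteases release the part that enters the nucleus and switches on target genes. The product of SREBF2 mainly drives cholesterol synthesis and uptake, and the SREBF1 products mainly drive fatty acid synthesis, with overlap. INSIG1 is itself a target, and one form of SREBF1 is raised by the oxysterol receptor LXR and by insulin.

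Counts over named genes summed to between 14052770 and 15067566 per library in the HHEX shRNA group and between 13333245 and 15144176 in the control group. The targeted gene, HHEX, had 14.8 CPM (counts scaled to library size; exact 95% Poisson interval 12.9 to 16.9, counting error only) in the first library, labelled KD1. KD2 had 7.93 (6.52 to 9.55) and KD3 had 7.12 CPM (5.80 to 8.65), and the controls had 12.6, 12.8 and 11.98 CPM. KD1 thus goes against its label, and the HHEX difference did not pass the test (edgeR log2 fold change −0.33, SE 0.28, adjusted p = 0.527). KD3 stood apart within its group: over the 14280 tested genes the log2 CPM of KD1 and KD2 correlated at r = 0.989, whereas KD3 reached 0.955 and 0.956 with them and 0.971 to 0.977 with the controls. The mitosis gene MKI67 lay at 401, 468 and 73.2 CPM in KD1 to KD3, against 158, 108 and 102 CPM in the controls. HSPA5, the main chaperone of the endoplasmic reticulum, lay at 1640, 1525 and 8993 CPM, against 15940, 17620 and 11830 CPM. The part of these library differences in the results that follow was not tested. Of the thyroid follicular markers, NKX2-1 (17.97 to 50.5 CPM), PAX8 and FOXE1 were present, while thyroglobulin (TG), TSHR and the iodide transporter SLC5A5 lay at or near 0. Of 4 adipocyte markers, ADIPOQ and CIDEC were at 0 in all 6 libraries, and the summed level reached at most 0.211 CPM in the HHEX shRNA libraries and 0 in the controls.

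Across the pathway, SREBF1 fell to 51.9% of its control level in the libraries labelled HHEX shRNA, and it alone of the 36 genes passed the test. Most enzyme genes did not follow it: of 17 enzymes of sterol synthesis 12 had a positive and 5 a negative log2 fold change, and of 13 enzymes that make, extend, desaturate or activate fatty acids 9 were positive and 4 negative. None of these 30 passed. The median log2 fold change was 0.13 for the sterol enzymes and 0.18 for the lipogenic enzymes, 0.11 for all 36 genes and −0.01 for all tested genes. By edgeR's quasi-likelihood test with Benjamini-Hochberg adjustment, 1 of 36 genes was called (2.78%), beside 0.182% of all tested genes. At an unadjusted p under 0.05 there were 12 of 36 (33.3%; 9 higher and 3 lower), beside 20.6% of all genes. The 3 HHEX shRNA libraries lay all above the 3 controls for 7 members, where 11.6% of all genes did so, and all below for 4, where 13.3% did. These shares describe the 36 genes and carry no test of their own.

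SREBF1 (ENSG00000072310, chromosome 17, 17810399 to 17837002, minus strand of GRCh38) stood at 34.2, 36.6 and 41.3 CPM in KD1 to KD3, against 70.0, 78.5 and 67.6 CPM in the controls. Every HHEX shRNA library lay well below every control, and KD3 was the least reduced. The means were 37.4 ± 3.59 and 72.0 ± 5.73 CPM (SD, n = 3 each), which puts the HHEX shRNA group at 51.9% of the control group. The log2 fold change was −0.95 (SE 0.13, 95% confidence interval −1.24 to −0.65, edgeR adjusted p = 0.0416). An exact permutation test of log2 CPM (two-sided) gave p = 0.1, the smallest that 3 against 3 libraries allow. Leaving out KD1, KD2 or any control, 1 at a time, kept the value between −0.99 and −0.86 but ended the call (adjusted p = 0.188 to 0.252), in fits that called at most 1 gene of all. Without KD3 it was −0.999 with an adjusted p of 8.7e-05. SREBF1 overlaps RAI1 on the opposite strand, and whether counting used strand is not stated. RAI1 itself was level, at 65.3, 71.8 and 67.7 CPM in KD1 to KD3, against 66.7, 61.8 and 70.8 CPM in the controls.

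SREBF2, the partner gene, showed no such difference. It stood at 97.4, 99.3 and 93.3 CPM in the HHEX shRNA libraries, against 125, 99.1 and 90.2 CPM in the controls. The groups overlap, and the interval of the log2 fold change, −0.44 to 0.21 around −0.12, does not reach the value of SREBF1. The same exact permutation test gave p = 0.8. On a scale of CPM per kilobase of exon, which allows different genes to be set side by side, SREBF1 was at 0.331, 0.347 and 0.417 times SREBF2 in KD1 to KD3, against 0.525, 0.745 and 0.705 times in the controls. SREBF2 was therefore the more abundant of the pair in each of the 6 libraries, by the wider margin in those labelled HHEX shRNA.

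Of the genes INSIG1, INSIG2 and SCAP, which hold or escort SREBPs, none passed the test. INSIG1, the retention protein that SREBPs themselves induce, stood at 36.8, 37.6 and 21.2 CPM in KD1 to KD3, against 17.3, 22.1 and 12.4 CPM in the controls. KD1 and KD2 lay above every control, and KD3 lay within their range (edgeR log2 fold change 0.88, SE 0.28, adjusted p = 0.149). INSIG2, which is not driven by SREBPs in the same way, stood at 44.5, 46.8 and 41.9 CPM, against 46.1, 46.9 and 43.2 CPM, with an interval of −0.31 to 0.24 around −0.03. The per-length ratio of INSIG1 to INSIG2 was 0.895, 0.871 and 0.547 in KD1 to KD3, against 0.407, 0.510 and 0.310 in the controls. In this ratio KD3 lay only just above control2, and for INSIG1 by itself the groups overlapped. How often other ratios part the groups was not counted. SCAP, the escort, stood at 77.4, 67.6 and 77.9 CPM, against 80.5, 94.4 and 82.5 CPM, all below the controls by a small margin (edgeR log2 fold change −0.21, SE 0.13, adjusted p = 0.365).

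**Figure D1:**
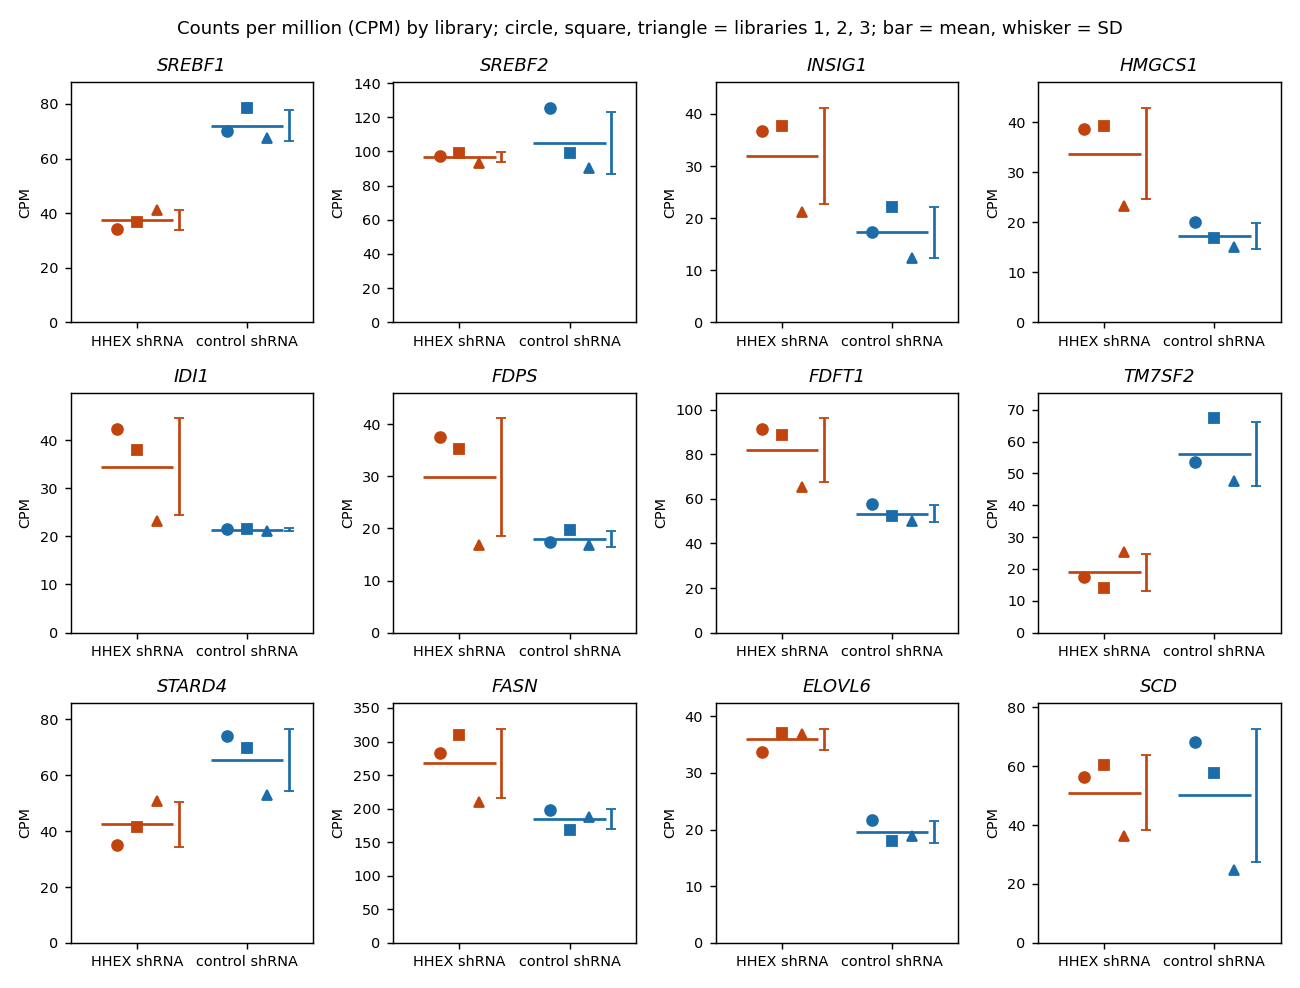
CPM of 12 genes in each library (circle, square and triangle for libraries 1, 2 and 3 of a group), with HHEX shRNA on the left and control shRNA on the right of each panel. Horizontal bars are group means and whiskers are SDs (n = 3). SREBF1 lies at 34.2 to 41.3 CPM in HHEX shRNA libraries and at 67.6 to 78.5 CPM in controls, while for INSIG1, HMGCS1, IDI1 and FDPS the triangle of KD3 sits near the controls.

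The first enzymes of cholesterol synthesis, which turn acetyl units into isoprenoid building blocks, ranged in log2 fold change from −0.24 to 0.97, and the highest of the 36 genes, HMGCS1, was among them. HMGCS1, the synthase that makes HMG-CoA, stood at 38.7, 39.2 and 23.2 CPM in KD1 to KD3, against 20.02, 16.8 and 14.97 CPM in the controls. All HHEX shRNA libraries lay above all controls, with KD3 closest to them (edgeR log2 fold change 0.97, SE 0.23, adjusted p = 0.105). IDI1, the isomerase of isopentenyl diphosphate, showed the same order at 42.3, 37.9 and 23.1 CPM, against 21.6, 21.6 and 21.02 CPM (edgeR log2 fold change 0.69, SE 0.22, adjusted p = 0.154). FDPS, which joins these units into farnesyl diphosphate, stood at 37.5, 35.2 and 16.8 CPM, against 17.4, 19.7 and 16.9 CPM, so that KD3 lay just under the lowest control. MVK, mevalonate kinase, stood at 10.4, 9.36 and 6.13 CPM, against 8.59, 7.44 and 7.62 CPM, again with KD1 and KD2 above every control and KD3 below them all. PMVK, the next kinase, stood at 27.8, 16.9 and 23.7 CPM, against 20.1, 31.7 and 28.97 CPM, and MVD, the decarboxylase, at 23.3, 17.6 and 19.3 CPM, against 19.4, 28.2 and 20.6 CPM. In PMVK and MVD the groups overlapped with no such order. Of the 6 mevalonate enzymes, 4 had a positive and 2 a negative log2 fold change and none passed the test. Per length, HMGCS1 was at 0.638, 0.635 and 0.399 times SREBF2 in KD1 to KD3, against 0.257, 0.272 and 0.267 times in the controls.

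The stretches of promoter just before the first base of 6 of these genes are shown because SREBF1 and SREBF2 parted and because INSIG1, HMGCS1, IDI1 and FDPS were the members farthest above the control mean by the mean of KD1 and KD2. They come from RefSeq windows of GRCh38.p14, which run from 250 bases before to 50 after a transcript start. The windows were searched on both strands for TCACNCCAC, a sterol regulatory element, for CACGTG, the E-box, and for CCAAT, bound by NF-Y. No matches overlap in the stretches shown. Capitals mark the matches, in which ATTGG is CCAAT on the other strand.
SREBF1 (chr17:17837003-17837236, minus strand): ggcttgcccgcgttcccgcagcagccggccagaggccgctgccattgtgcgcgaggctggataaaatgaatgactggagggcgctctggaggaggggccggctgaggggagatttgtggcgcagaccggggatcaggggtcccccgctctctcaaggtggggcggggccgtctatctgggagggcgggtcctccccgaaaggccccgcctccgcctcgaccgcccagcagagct
SREBF2 (chr22:41832855-41833078, plus strand): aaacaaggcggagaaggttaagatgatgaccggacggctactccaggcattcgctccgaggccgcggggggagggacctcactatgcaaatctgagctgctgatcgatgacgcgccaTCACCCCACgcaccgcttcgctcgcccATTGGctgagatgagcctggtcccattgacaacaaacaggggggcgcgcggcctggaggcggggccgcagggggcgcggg
INSIG1 (chr7:155297628-155297775, plus strand): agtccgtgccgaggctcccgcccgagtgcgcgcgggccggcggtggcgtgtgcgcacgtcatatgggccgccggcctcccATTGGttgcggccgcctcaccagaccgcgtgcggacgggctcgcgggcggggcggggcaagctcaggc
HMGCS1 (chr5:43313513-43313662, minus strand): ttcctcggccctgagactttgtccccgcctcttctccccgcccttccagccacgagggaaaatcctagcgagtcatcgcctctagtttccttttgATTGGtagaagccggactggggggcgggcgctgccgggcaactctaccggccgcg
IDI1 (chr10:1049171-1049369, minus strand): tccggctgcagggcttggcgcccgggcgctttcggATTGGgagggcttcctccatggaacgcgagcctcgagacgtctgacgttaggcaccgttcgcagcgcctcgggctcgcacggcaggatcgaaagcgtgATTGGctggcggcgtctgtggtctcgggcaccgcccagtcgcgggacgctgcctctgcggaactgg
FDPS (chr1:155308616-155308747, plus strand): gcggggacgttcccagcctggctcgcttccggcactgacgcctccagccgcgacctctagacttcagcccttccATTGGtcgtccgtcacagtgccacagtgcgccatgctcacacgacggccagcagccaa
The SREBF2 stretch holds TCACCCCAC and a CCAAT box close behind it, and IDI1 holds 2 CCAAT boxes. The INSIG1, HMGCS1 and FDPS stretches hold 1 CCAAT box each, and the SREBF1 stretch holds none of the 3 motifs. The stretches, 132 to 234 bases long, are only the part of each window that lies before the gene's first base in the deposited table. In their whole windows FDPS has 3 CCAAT boxes, HMGCS1 has 2, and INSIG1 has an E-box as well, 55 bases before the transcript start. SREBF1 is known to start from alternative promoters, which the counts do not tell apart. Over the 33 of 36 members found in the RefSeq table, CCAAT was present in 26 (78.8%), beside 39.7% of 27305 genes, and at least 2 boxes in a window in 16 (48.5%), beside 12.9%. TCACNCCAC was in 2 members, SREBF2 and ACSL1 (6.06%, beside 1.39%), and CACGTG in 5 (15.2%, beside 8.77%). A gene counted if any of its windows matched. The 33 members had 49 windows and the 27305 genes 35116, so that members had more windows per gene. The 27305 genes were not limited to those tested here. A match describes the letters of these windows and no binding was measured.

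From squalene onward the genes went different ways. FDFT1, which makes squalene, stood at 91.6, 88.6 and 65.5 CPM in KD1 to KD3, against 57.6, 52.5 and 49.99 CPM in the controls, all above (edgeR log2 fold change 0.62, SE 0.16, adjusted p = 0.113). SC5D, a late desaturase, was also above in every library, at 21.5, 22.6 and 21.5 CPM, against 15.8, 17.6 and 17.3 CPM (edgeR log2 fold change 0.37, SE 0.14, adjusted p = 0.200). EBP, the sterol isomerase, spread widely, at 59.7, 42.8 and 25.4 CPM, against 24.6, 32.0 and 34.0 CPM, so that KD1 and KD2 lay above the controls and KD3 among them. TM7SF2, a sterol reductase whose step the lamin B receptor can also carry out, went the other way by the widest margin of the 36 genes. It (ENSG00000149809, chromosome 11, 65111845 to 65116384, plus strand) stood at 17.6, 14 and 25.2 CPM in KD1 to KD3, against 53.6, 67.3 and 47.6 CPM in the controls. The groups did not overlap, and the HHEX shRNA mean was 33.7% of the control mean (log2 fold change −1.57, SE 0.23, 95% confidence interval −2.10 to −1.04). Its edgeR adjusted p of 0.0512 missed the threshold, and it passed with other scaling of the libraries (0.0381 to 0.0457) and with unnamed rows kept (0.0475). It also passed without a filter (7.26e-14), with DESeq2 (6.03e-07) and without KD3 (1.28e-05), where 4.8%, 5.98% and 31.6% of all genes passed. It did not pass without robust estimation (0.0575), with a filter of 1 CPM (0.0536), or without KD1, KD2 or any 1 control (0.161 to 0.259). TM7SF2 overlaps VPS51 on the same strand, so that reads may be shared. VPS51 was also lower in all 3, at 37.5, 32.4 and 42.4 CPM, against 47.2, 71.6 and 58.8 CPM (edgeR log2 fold change −0.66, SE 0.18, adjusted p = 0.126).

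In the other 7 enzymes of this stretch the groups overlapped. SQLE, the epoxidase that is a control point of the pathway, stood at 55.9, 56.4 and 47.3 CPM in KD1 to KD3, against 52.3, 52.3 and 42.1 CPM in the controls. LSS, which closes the sterol rings, stood at 54.9, 48.1 and 58.1 CPM, against 66.2, 63.0 and 51.2 CPM. MSMO1, NSDHL and HSD17B7, which strip methyl groups from the ring, had log2 fold changes of 0.09, 0.19 and 0.06, and DHCR7, which makes the final product, −0.13. CYP51A1, the demethylase of lanosterol, had few counts, with 13, 7 and 19 in KD1 to KD3, against 8, 13 and 10 in the controls. At that depth a log2 fold change of 0.36 has an interval of −0.787 to 1.5, so that a difference was not detectable. CYP51A1 overlaps AC000120.3 and AC000120.2 on the same strand, so that reads may have been shared or left out. The effect on its counts was not tested. STARD4, a carrier of sterol between membranes and a known SREBP target, stood at 35.0, 41.5 and 51.0 CPM, against 73.9, 69.9 and 52.9 CPM. All HHEX shRNA libraries lay below all controls, but KD3 only just (edgeR log2 fold change −0.63, SE 0.18, adjusted p = 0.137).

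**Figure D2:**
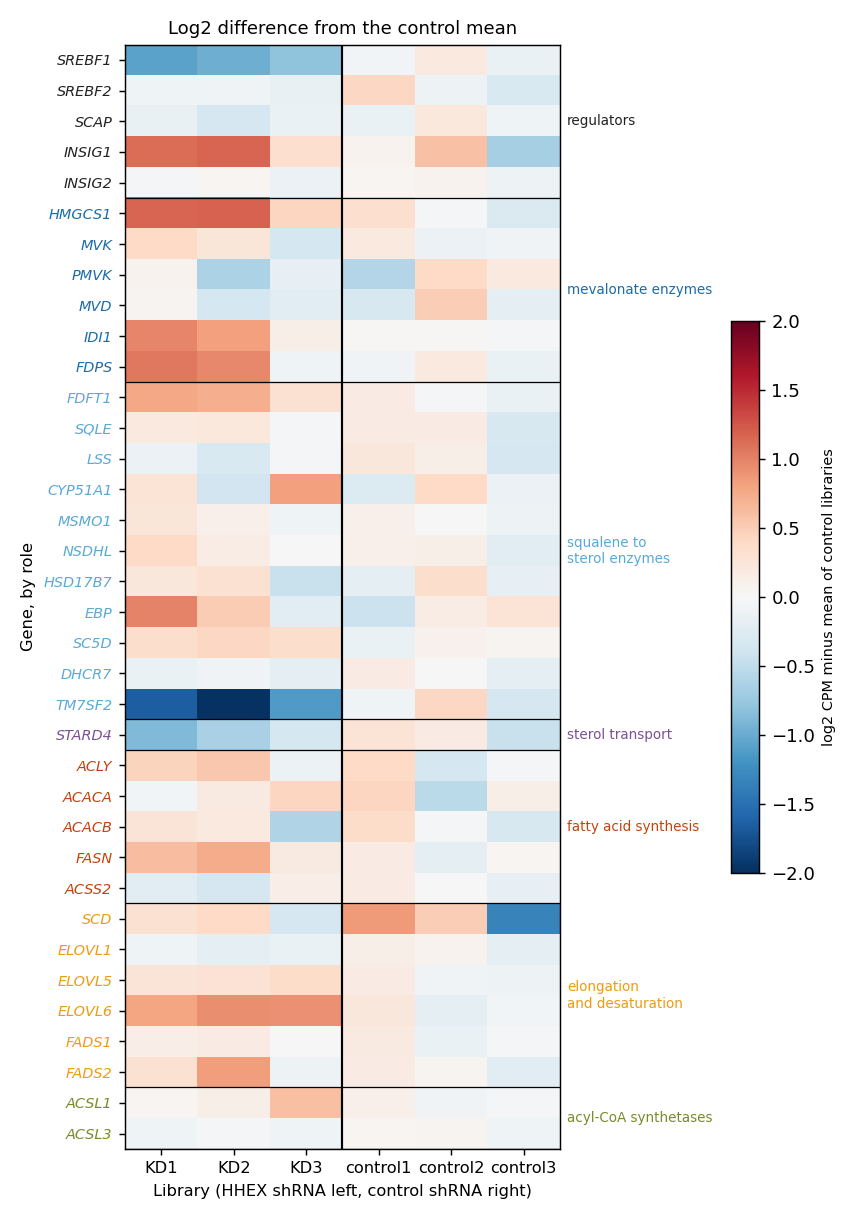
Difference of log2 CPM for the 36 genes (rows, ordered by role) in each library (columns, HHEX shRNA left and control shRNA right). HHEX shRNA columns are minus the mean of the 3 controls, and each control column is minus the mean of the other 2. Red is higher and blue lower. SREBF1, TM7SF2 and STARD4 are blue in KD1 to KD3, and INSIG1, HMGCS1, IDI1 and FDFT1 are darker red in KD1 and KD2 than in KD3. FDPS is red in KD1 and KD2, and its difference in KD3 is −0.09.

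Among the enzymes that make fatty acids, FASN, the fatty acid synthase, lay above the controls in every HHEX shRNA library. It stood at 283, 310 and 210 CPM in KD1 to KD3, against 198, 169 and 187 CPM in the controls (edgeR log2 fold change 0.53, SE 0.17, adjusted p = 0.148). SREBF1, the regulator known to drive this gene, was at the same time lower, and the per-length ratio of FASN to SREBF1 was 7.10, 7.25 and 4.35 in KD1 to KD3, against 2.43, 1.84 and 2.38 in the controls. The supply steps did not separate the groups. ACLY, which splits citrate into acetyl-CoA, stood at 325, 346 and 220 CPM, against 285, 202 and 234 CPM, and ACSS2, which makes acetyl-CoA from acetate, at 30.2, 27.9 and 38.6 CPM, against 38.03, 35.4 and 32.6 CPM. For ACSS2, KD1 and KD2 lay below every control and KD3 above. ACACA, the carboxylase that commits acetyl-CoA to fatty acids, stood at 87.0, 103 and 123 CPM, against 111, 70.4 and 95.6 CPM. Its mitochondrial partner ACACB was rare, at 4.31, 4.14 and 2.33 CPM, against 4.26, 3.52 and 3.06 CPM.

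ELOVL6, which extends palmitate, was the lipogenic gene that separated the groups most. It stood at 33.8, 37.1 and 36.9 CPM in KD1 to KD3, against 21.7, 17.99 and 18.9 CPM in the controls. Here KD3 was as high as KD1 and KD2, unlike in most of the genes above (edgeR log2 fold change 0.88, SE 0.14, 95% confidence interval 0.55 to 1.21, adjusted p = 0.0609). ELOVL5, an elongase of polyunsaturated fatty acids, was above in all 3 libraries by a smaller margin, at 234, 239 and 253 CPM, against 210, 190 and 187 CPM (edgeR log2 fold change 0.31, SE 0.12, adjusted p = 0.200). ELOVL1, which makes very long chains, stood at 165, 152 and 159 CPM, against 184, 181 and 159 CPM. SCD, the desaturase that makes oleate, was, for its level, the most variable of the set among the controls, at 56.5, 60.4 and 36.4 CPM in KD1 to KD3, against 68.1, 57.6 and 24.6 CPM. Its interval of −0.82 to 0.88 allows a wide range in either direction. FADS1 and FADS2, desaturases of polyunsaturated fatty acids, had log2 fold changes of 0.10 and 0.40 with overlapping groups. The FADS2 gene overlaps FADS1 and, on the same strand, FEN1, so that reads may be shared. FEN1 had 14689 counts over the 6 libraries and FADS2 579. FEN1 stood at 319.9, 280.3 and 77.17 CPM in KD1 to KD3, against 112.5, 116.9 and 107.8 CPM in the controls. Its part in the FADS2 values was not tested. ACSL1, which activates long-chain fatty acids, stood at 24.5, 26.1 and 36.7 CPM, against 25.1, 23.2 and 23.7 CPM, with KD3 the highest of the 6. ACSL3, an activating enzyme tied to lipid droplets, stood at 82.8, 86.6 and 83.4 CPM, against 89.8, 90.6 and 84.8 CPM, nearly level.

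**Figure D3:**
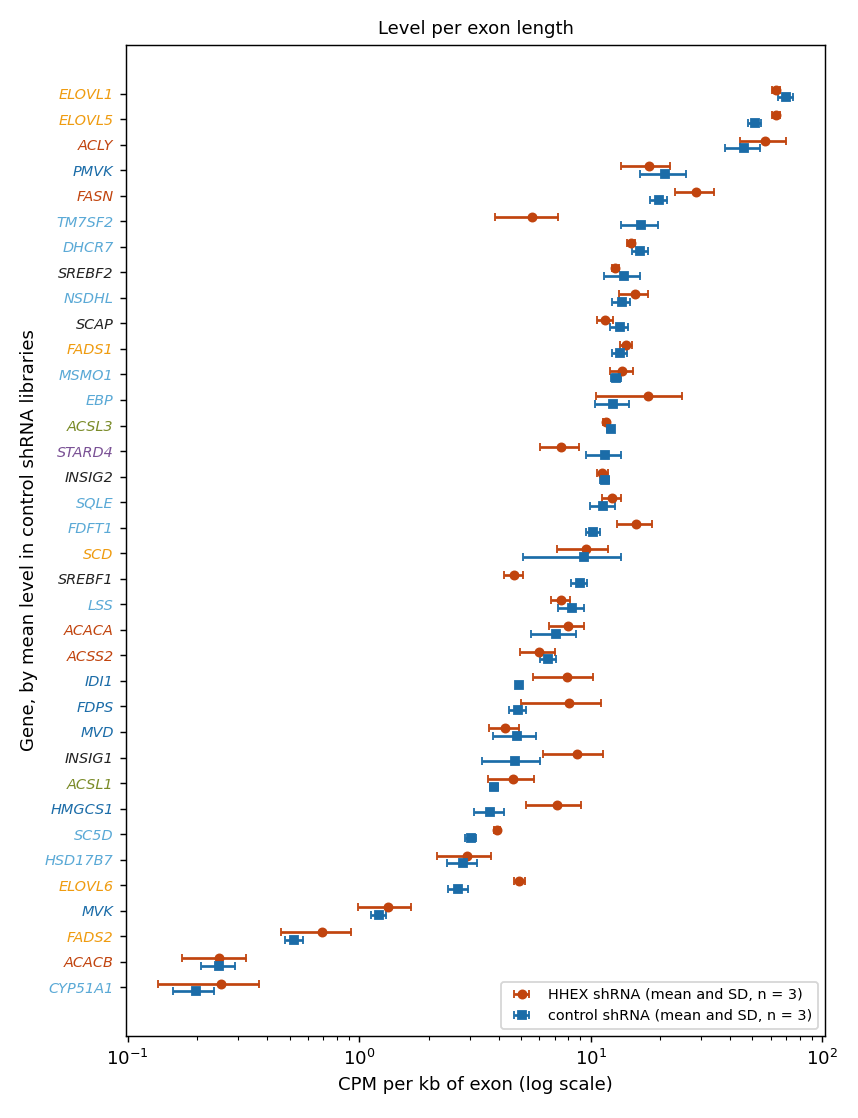
CPM per kilobase of exon (log axis) of the 36 genes, ordered by the control mean, with HHEX shRNA in red and control shRNA in blue as mean and SD (n = 3). In controls the means run from ELOVL1, at 69.7, down to CYP51A1, at 0.196. In HHEX shRNA libraries they run from ELOVL5, at 63.4, down to ACACB, at 0.248. The means part most for TM7SF2.

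Per length, the most abundant transcripts were those of ELOVL1, at 63.2 ± 2.67 CPM per kilobase in HHEX shRNA and 69.7 ± 5.30 in control libraries (SD, n = 3 each), ELOVL5, at 63.4 ± 2.62 and 51.3 ± 3.34, and ACLY, at 56.9 ± 12.9 and 46.1 ± 8.08. ELOVL5 lay above ACLY in every control library, though only just in control1 (55.1 and 54.7). Among the HHEX shRNA libraries it did so in KD3 alone. The order of ELOVL1 and ELOVL5 also changed among the HHEX shRNA libraries, with ELOVL1 the higher in KD1 only. The lowest were CYP51A1, ACACB and FADS2, all under 1 CPM per kilobase, and reads of CYP51A1 and FADS2 may be shared with overlapping genes. TM7SF2 ranked 26 of 36 in HHEX shRNA libraries, at 5.56 ± 1.68, and 6 of 36 in controls, at 16.5 ± 2.97. SREBF1 ranked 28 in HHEX shRNA libraries, at 4.66 ± 0.448, and 20 in controls, at 8.97 ± 0.713. FDFT1 ranked 7 in HHEX shRNA libraries and 18 in controls. ELOVL6 was at 0.0754, 0.0813 and 0.0762 times ELOVL5 in KD1 to KD3, against 0.0540, 0.0496 and 0.0530 times in the controls, so that the rarer of these elongases had the larger log2 fold change. Together the 36 genes took 0.241%, 0.245% and 0.210% of the counts in KD1 to KD3, against 0.234%, 0.213% and 0.212% in the controls.

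Set against the control mean in each library, SREBF1 was lower by similar amounts while the medians of the enzymes varied by library. In KD1 to KD3 the SREBF1 difference in log2 CPM was −1.07, −0.97 and −0.80, and that of SREBF2 −0.09, −0.07 and −0.16. The median difference of the 17 sterol enzymes was 0.28, 0.21 and −0.09 in KD1 to KD3, against 0.02, 0.12 and −0.14 in the controls, each set against the other 2. For the 13 lipogenic enzymes it was 0.26, 0.20 and 0.00, against 0.16, −0.06 and −0.09. With control3 left out of the control mean, the sterol median in KD2 was 0.109, and the lipogenic medians in KD1 and KD2 were 0.119 and 0.154. The 6 mevalonate enzymes alone had medians of 0.69, 0.53 and −0.12 in KD1 to KD3. Over all tested genes the medians lay between −0.02 and 0.01 in the 6 libraries.

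**Figure D4:**
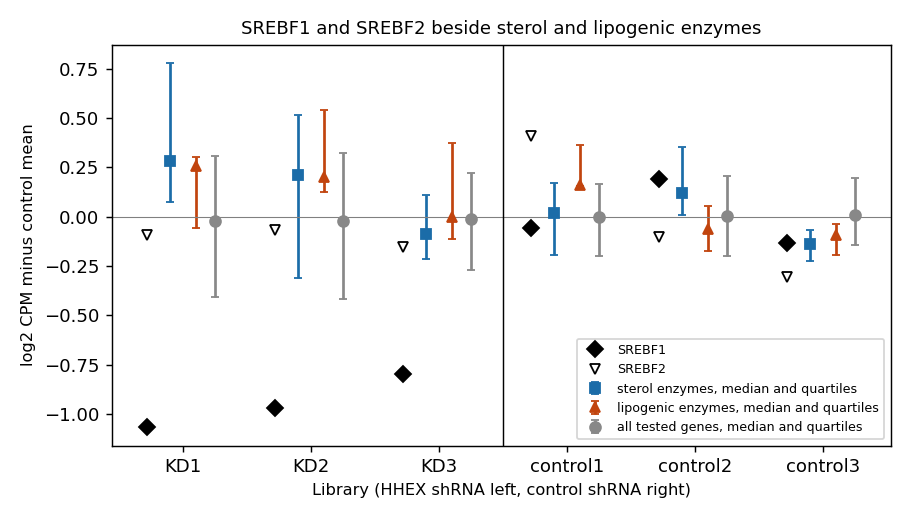
Log2 CPM minus the control mean in each library (HHEX shRNA left, control shRNA right), with SREBF1 and SREBF2 as single points and sterol enzymes, lipogenic enzymes and all tested genes as medians with quartiles. SREBF1 lies at −1.07, −0.97 and −0.80 in KD1 to KD3, while the sterol median is 0.28, 0.21 and −0.09.

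KD3 lay between KD1 and KD2 for 5 of the 36 genes, above both for 10 and below both for 21. This order was not counted over all genes. KD1 and KD2 were much alike, and whether this order is particular to the members was not tested. Both KD1 and KD2 lay above all 3 controls for 17 of 36 members (47.2%), beside 27.6% of all genes, and both lay below for 5 (13.9%; SREBF1, SCAP, TM7SF2, STARD4 and ACSS2), beside 29.9%. KD3 lay above the controls for 11 members (30.6%), beside 29.8%, and below for 14 (38.9%), beside 31.6%. In 14 of the 17 genes KD3 was nearer the control mean than KD1 and KD2 were, the exceptions being MVK, ELOVL5 and ELOVL6. These 17 were picked by their height in KD1 and KD2, which by itself favours a KD3 nearer the controls. The same share was not counted over all genes, so it says nothing particular about the members. KD3 was also nearer the controls over all tested genes, where 5.55% of genes differed from the control mean by more than 2-fold, compared with 12.4% in KD1 and 12.7% in KD2. With KD3 left out, 12 of 36 members passed (33.3%), in a fit that called nearly the same share, 31.6%, of all genes. The 9 higher ones were INSIG1 (log2 fold change 1.13), HMGCS1 (1.199), IDI1 (0.93), FDPS (1.04), FDFT1 (0.78), EBP (0.79), ACLY (0.50), FASN (0.71) and ELOVL6 (0.88). The 3 lower ones were SREBF1 (−0.999), TM7SF2 (−1.81) and STARD4 (−0.75). That fit rests on KD1 and KD2, the 2 most alike libraries, and on KD1, in which HHEX was not lower. DESeq2 on all 6 libraries called 6 members (SREBF1 and TM7SF2 lower, INSIG1, HMGCS1, FDFT1 and ELOVL6 higher), beside 5.98% of all genes. Without a filter on low counts, edgeR called 10, beside 4.8%.

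**Figure D5:**
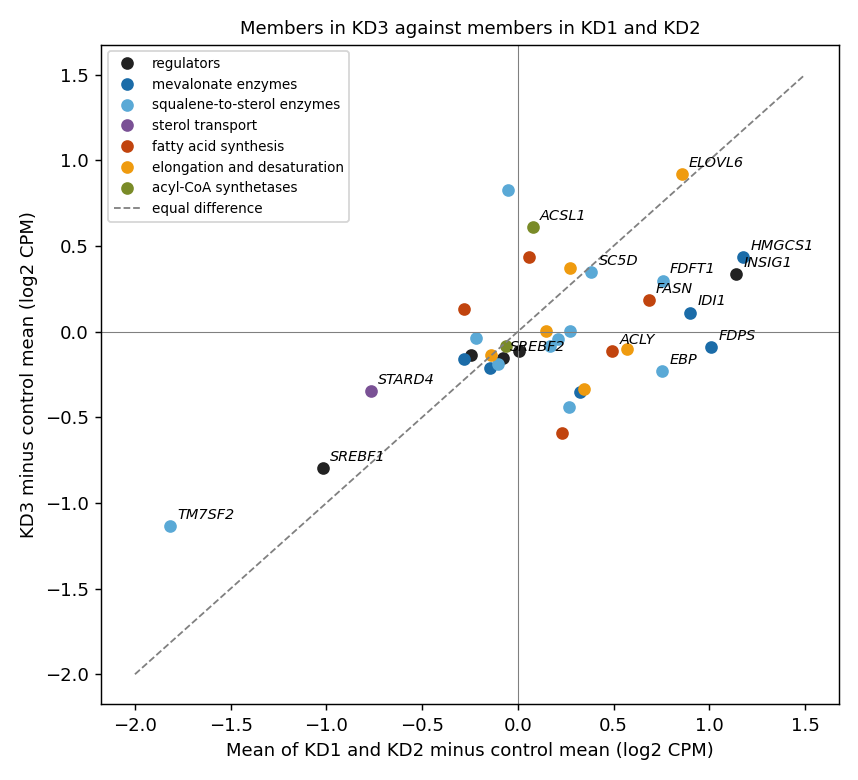
Log2 CPM minus the control mean for the 36 genes, in KD3 (vertical) against the mean of KD1 and KD2 (horizontal), coloured by role, with the line of equal difference. SREBF1 and ELOVL6 lie near the line, TM7SF2 and STARD4 are less negative in KD3, and HMGCS1, INSIG1, IDI1 and FDPS lie far below the line on the right.

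Of 52 tested genes around the pathway, taken from lists on SREBP cleavage, sterol uptake and efflux, glycerolipid supply, other elongation and desaturation steps, fatty acid oxidation and prenyl branches, 0 passed edgeR's test, beside 0.182% of all genes. At an unadjusted p under 0.05 there were 15 (28.8%; 8 higher and 7 lower), beside 20.6% of all genes. The median log2 fold change was −0.07 for 7 genes of SREBP cleavage and turnover, −0.01 for 11 of sterol uptake, efflux and storage and −0.22 for 11 of glycerolipid supply. It was −0.065 for 8 of other elongation steps, −0.11 for 7 of oxidation and 0.11 for 8 of the prenyl branches. LRP8, a lipoprotein receptor of the family that takes up cholesterol carriers, stood at 109, 114 and 67.7 CPM in KD1 to KD3, against 50.5, 43.2 and 55.8 CPM in the controls (edgeR log2 fold change 0.96, SE 0.21, adjusted p = 0.0986). Its relative VLDLR stood at 37.3, 35.6 and 24.0 CPM, against 22.3, 21.2 and 19.9 CPM. Both were above the controls in every HHEX shRNA library, with KD3 the lowest of the 3. CPT1A, which brings fatty acids into mitochondria for oxidation, stood at 39.0, 40.1 and 38.9 CPM, against 20.6, 18.7 and 24.6 CPM, level across KD1, KD2 and KD3 (edgeR log2 fold change 0.88, SE 0.15, adjusted p = 0.0662). ME1, which makes NADPH for lipid synthesis, stood at 38.2, 33.6 and 69.9 CPM, against 30.0, 27.5 and 25.8 CPM, and was highest in KD3. GPAM, the first acyltransferase of glycerolipid synthesis, had a log2 fold change of 0.55. FADS3, a relative of the FADS desaturases, stood at 21.6, 17.2 and 59.0 CPM, against 69.1, 74.9 and 76.9 CPM, with KD3 near the controls. MBTPS1, the protease that makes the first cut in SREBPs, stood at 209.9, 205.1 and 219.6 CPM, against 268.7, 241.7 and 266.2 CPM, below every control in each library (edgeR log2 fold change −0.29, SE 0.12, adjusted p = 0.214). Of the other genes with the smallest p in their lists, ERLIN1, which helps degrade sterol-regulated proteins, had a log2 fold change of 0.30, the fatty acid elongation enzyme HACD3 0.35, the oxidation enzyme ACADM −0.30, and the prenyl enzymes FNTB and PDSS2 0.89 and 0.53, none of them past the test.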

How the data were processed

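RNA-seq libraries of 8505C cells were analysed, 3 labelled HHEX shRNA and 3 labelled control shRNA. Trizol RNA went through an mRNA capture kit, per the labels' protocols. The aligner, counter, strand setting and annotation were not given in the sources used here. Raw counts per gene were deposited by the authors. 6 further columns of per-library values were not used. Each column was assigned to its group by name, with no replicate label. Rows without a gene name (998, with 0.239% to 0.298% of the counts) were left out.

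Counts were tested with edgeR 4.0.16 in R 4.3.3 (filterByExpr by group, TMM scaling, glmQLFit with robust estimation, glmQLFTest, no covariates), with Benjamini-Hochberg adjustment over 14280 genes and a threshold of 0.05. Each SE was derived from the F statistic and the fold change. CPM use TMM factors, and log2 CPM a prior count of 2. Levels of different genes were compared per kilobase of union exon length in GENCODE. Coordinates are those of the table and equal GENCODE on GRCh38 for 36 of 36 members. Of the 36, 25 overlap another annotated gene. With 3 counts as the floor, the lowest level counted as detected was 0.198 to 0.225 CPM, depending on the library. PCR duplicates cannot be told from independent molecules, so intervals cover counting error only. The fit was tested on simulated counts of 14280 genes. It recovered 55% of 2-fold and 83% of 4-fold changes, with 13 false calls, so that many 2-fold changes were missed even there. The simulated libraries of a group were drawn independently, whereas KD1 and KD2 were much alike and KD3 stood apart. The share missed in the real data was therefore not measured. Alternatives were RLE, upper-quartile and no scaling, 2 other filters, no robust estimation, unnamed rows kept, DESeq2 1.42.0 and leaving out each library.

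The members and lists were chosen with earlier results of these data known. The text names all 36 members and, of each list of other pathway genes, those past the threshold or otherwise the 2 with the smallest p. Some genes of the pathway are not reported here.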

Additional observations from a re-analysis of the deposited data

How the results depend on the processing

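Of 503 log2 fold changes of members under the 14 alternatives, 448 kept their direction and their side of the threshold, 29 passed it newly, 5 no longer passed and 21 reversed. Among all genes, 26 were called; the count was 1359 without a filter on low counts and 854 with DESeq2, and 0 to 4675 when 1 library was left out (0 without KD1, KD2, control2 or control3, 1 without control1 and 4675 without KD3, with 1789, 1625, 1947, 1806, 2428 and 6233 genes at an unadjusted p under 0.05). Among the 36 members, 1 was called; 2 were called with RLE, upper-quartile or no scaling and with unnamed rows kept, 10 without a filter, 6 with DESeq2 and 0 to 12 when 1 library was left out. The 5 lost calls are those of SREBF1 without KD1, KD2 or a control. Without KD3, which also leaves 1 library fewer, SREBF1 kept its call (edgeR adjusted p = 8.7e-05). The cause of this difference was not tested.

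With 1 library left out, SREBF2 ranged from −0.217 to 0.056 (reversed without control1), INSIG2 from −0.068 to 0.032 (without KD3, control1 or control2), MVK from −0.023 (without KD1) to 0.355, MVD from −0.299 to 0.027 (without control2) and CYP51A1 from −0.007 (without KD3) to 0.647. Likewise HSD17B7 ranged from −0.073 to 0.285 (reversed without KD1 or KD2), ACACB from −0.156 to 0.254 (without KD3 or control1) and SCD from −0.3 to 0.338 (without KD1, KD2 or control3). With upper-quartile factors HSD17B7 was −0.005 and SCD −0.032, and SCD was −0.001 without scaling. ACACB was 0.015 with RLE or DESeq2, 0.001 without a filter and 0.014 with unnamed rows kept. The lipogenic median in KD1 was 0.119 with control3 left out of the control mean, against 0.26. The cause was not tested.

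No paired analysis was possible because the columns of the table give the group of a library and not its replicate label. Low counts limit CYP51A1 and ACACB most.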

Other observations

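ABCG1, MYLIP and NR1H3, 3 genes of the LXR branch of sterol handling, were chosen for naming after their values were seen. None passed edgeR's test. In the whole list on LXR and sterol efflux, uptake and storage, 5 of 11 tested genes had a positive and 6 a negative log2 fold change, with a median of −0.01. ABCG1, a sterol exporter that LXR induces, had 1, 0 and 19 counts in KD1 to KD3, against 58, 37 and 47 counts in the controls, so that KD3 lay between. MYLIP, the LXR-induced ligase that removes lipoprotein receptors, stood at 6.47, 9.57 and 24.0 CPM, against 21.6, 23.6 and 24.3 CPM, with KD3 among the controls (log2 fold change −0.80, edgeR adjusted p = 0.324). NR1H3, which encodes an LXR, stood at 2.90, 2.29 and 3.45 CPM, against 4.26, 4.98 and 4.10 CPM, below the controls in all 3 libraries (log2 fold change −0.63, edgeR adjusted p = 0.241). ABCG1 had a log2 fold change of −2.79 with an SE of 0.95 (edgeR adjusted p = 0.176), a fitted value that depends on the prior count at such low counts.

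In KD3 the endothelial list summed to 5.07 CPM, compared with 14.89 and 14 CPM in KD1 and KD2 and 14.97 to 16.2 CPM in the controls, mostly through CDH5. The leukocyte gene PTPRC reached at most 0.916 CPM in the HHEX shRNA libraries and 0.0747 CPM in the controls, and LYZ was at 0 in all 6. The fibroblast list summed to at most 6.43 CPM in the HHEX shRNA libraries and 5.66 CPM in the controls. The epithelial list summed to 2142, 1901 and 1314 CPM in KD1 to KD3, against 1370, 1558 and 1181 CPM in the controls. The part of these markers in the member values was not tested.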
